A study of Mus musculus with 6 samples.

Results

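The genes described here are decorin (Dcn), its relatives biglycan (Bgn), lumican (Lum) and fibromodulin (Fmod), and the matrix glycoproteins fibronectin (Fn1), Sparc, tenascin-C (Tnc), thrombospondin-1 (Thbs1), periostin (Postn) and fibulin-1 (Fbln1). They are 10 of the 52636 genes counted, taken by symbol from the count table, and they were selected on their levels in these same 6 libraries, because Dcn was high in SSM3 while other stromal genes were not. Levels and fold changes of the 10 genes between the lines are therefore descriptions and carry no p-value. The choice also drew on the levels of stromal genes, so the direction and adjusted p-values of stromal matrix genes below are not independent of it. Of the 10 genes, 6 passed the filter on low counts, 2 (Postn and Fbln1) had too few counts and 2 (Lum and Fmod) had none.

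The libraries hold 3′ end tags of polyadenylated RNA from cell cultures, 3 biological replicates each of the lines J110 and SSM3. J110 cells come from mammary tumours of transgenic mice in which the MMTV LTR, a promoter active in mammary epithelium, drives an AIB1 cDNA (AIB1 is the coactivator encoded by Ncoa3). SSM3 cells come from mammary tumours of 129SvEv mice. Both lines were grown in DMEM/F-12 with serum, insulin and hydrocortisone and received no treatment. SSM3 cells had more serum and more CO2 than J110 cells and also Hepes, L-glutamine, β-mercaptoethanol and holo-transferrin, so line, mouse strain and culture medium cannot be told apart. Each group is a single line grown without the stroma of a tumour.

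Small leucine-rich proteoglycans are secreted proteins whose curved leucine-rich repeats bind collagen fibrils, and decorin and biglycan also carry chondroitin or dermatan sulfate chains. Decorin limits the lateral growth of collagen fibrils, binds TGF-β and binds receptor tyrosine kinases such as Met and Egfr at the cell surface. In the mammary gland and its tumours it is known as a product of stromal fibroblasts. Fibronectin is assembled into fibrils through integrins, while Sparc, tenascin-C, thrombospondin-1 and periostin are matricellular proteins, which modulate adhesion and growth factors more than they build the scaffold, and fibulin-1 binds fibronectin and basement membranes.

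Total counts ranged from 5209740 to 5416305 in J110 and from 4200785 to 4792941 in SSM3, and values are given as CPM, the usual depth-normalised count, after TMM scaling, which corrects for the composition of each library. The kit yields about a read per transcript end, so CPM was not divided by gene length and is a level of tags, not of length-corrected RNA. A count of 3 per library, used as the floor of detection, equals 0.578 to 0.668 CPM. Traces of the other line's genes were counted among genes with at least 100 CPM in the other line and at most 3 counts in all in the remaining libraries of the line looked at. J110 replicate 3 had counts on 38 of 48 genes of this kind, at a summed 0.227% of their SSM3 level. SSM3 replicate 2 had counts on 33 of 34, at 0.420% of their J110 level. In the remaining libraries the share was 0.0109% to 0.0974%. Ncoa3, the gene of the J110 transgene, had 102 to 110 counts in J110 and 181 to 199 in SSM3 and shares exons with Sulf2, and the sources used here do not say whether the transgene's transcripts end in sequence that is counted for it, so Ncoa3 does not check the labels.

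Decorin was high in SSM3 and close to 0 in J110. Dcn (ENSMUSG00000019929, chr10:97479609-97518143, plus strand, mm10) had 6643, 6698 and 6712 counts in SSM3 replicates 1 to 3 and 0, 1 and 12 counts in J110 replicates 1 to 3. These equal 1479, 1422 and 1336 CPM in SSM3 and 0, 0.198 and 2.50 CPM in J110. The libraries of the lines did not overlap, and the SSM3 replicates stood close together at 1412 ± 72.4 CPM (SD, n = 3), which placed Dcn 62nd among all genes by mean level in that line. In J110 the mean was 0.901 ± 1.39 CPM (SD, n = 3), with nearly all counts in replicate 3. The fitted log2 fold change of SSM3 over J110 was 10.63 with a standard error (SE) of 0.24. It was 10.02 without J110 replicate 1. Without J110 replicate 3 the other J110 libraries held 1 Dcn count in all, against which Dcn was 14439-fold higher in SSM3, with a 95% exact interval of 2591 to 570351 that covers counting error only. The 12 counts in J110 replicate 3 amount to 0.177% of the SSM3 level, beside 0.227% for the other genes of that kind in the same library, and the part of such traces in the J110 value was not tested. Dcn shares no exon with another annotated gene. In RNA from whole cultures, fewer cells with a transcript and less transcript per cell cannot be told apart.

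Bgn (ENSMUSG00000031375, chrX:73483602-73495933, plus strand), a relative of decorin of the same class and also a carrier of chondroitin or dermatan sulfate, had the opposite pattern. It had 42, 31 and 37 counts in J110 and 0, 0 and 1 in SSM3, which gives mean levels of 7.32 ± 1.04 and 0.0663 ± 0.115 CPM (SD, n = 3). Every J110 library was above every SSM3 library, and the ratio was 104-fold lower in SSM3 with a 95% exact interval of 18.3 to 4148. Without SSM3 replicate 3, which held the count, Bgn was at least 11.2-fold lower against 3 counts per library. Lum (ENSMUSG00000036446, chr10:97565128-97572703, plus strand) and Fmod (ENSMUSG00000041559, chr1:134037254-134048277, plus strand), which carry keratan sulfate and regulate collagen fibrils, had 0 counts in each of the 6 libraries, which allows up to 3 counts per library. Of these 4 proteoglycans, Dcn was thus the one above the floor in SSM3 and Bgn the one above it in every J110 library.

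Reads of such related transcripts could be confused only where the sequences match over a read. The coding sequence of Dcn matches those of 16 other small leucine-rich proteoglycans at 58.7% to 70.4% of aligned positions. For Dcn (1062 bases) and Bgn (1107 bases) the match is 67.7%. The stretches around their longest shared coding run are shown because the contrast between Dcn and Bgn rests on telling them apart, with the shared run of 17 bases in capitals. They are coding bases 763 to 869 of Dcn and 805 to 911 of Bgn, 5′ to 3′, from the GENCODE transcripts of GRCm38, and 77 of the 107 positions match.
Dcn: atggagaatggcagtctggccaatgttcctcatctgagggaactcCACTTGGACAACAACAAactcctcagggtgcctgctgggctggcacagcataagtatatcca
Bgn: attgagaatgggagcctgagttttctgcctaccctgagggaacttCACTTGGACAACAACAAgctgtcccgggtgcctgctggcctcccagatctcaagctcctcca
Over the whole transcript, the longest exact run that Dcn shared with any of 16 other small leucine-rich proteoglycans was 11 to 17 bases.

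Among the glycoproteins, fibronectin was the most abundant in J110 and the only one with at least 10 counts in every library. Fn1 (ENSMUSG00000026193, chr1:71585520-71653200, minus strand) had 3482, 3534 and 3015 counts in the J110 libraries and 300, 325 and 331 in SSM3. The J110 libraries averaged 666 ± 35.2 CPM and the SSM3 libraries 67.2 ± 1.62 CPM (SD, n = 3), without overlap, and the log2 fold change was -3.31 (SE 0.077). Its exons share 292 bases with the antisense gene Apol7d, which had at most 4 counts in any library.

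Sparc (ENSMUSG00000018593, chr11:55394500-55423183, minus strand), a collagen-binding matricellular protein, had 1466, 1584 and 1500 counts in J110 and 37, 10 and 7 in SSM3. The J110 mean was 303 ± 17.6 CPM and the SSM3 mean 3.92 ± 3.76 CPM (SD, n = 3), with a log2 fold change of -6.30 (SE 0.24). SSM3 replicate 1 held most of the SSM3 counts, and without it the log2 fold change was -7.41. The order of the lines was the same in every library.

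Thbs1 (ENSMUSG00000040152, chr2:118111876-118127133, plus strand), which binds Cd47 and activates latent TGF-β, had 281, 235 and 360 counts in J110 and 3, 1 and 2 in SSM3. That is 58.6 ± 14.8 against 0.426 ± 0.229 CPM (SD, n = 3), a log2 fold change of -7.03 (SE 0.32). All SSM3 libraries were at the floor, and J110 replicate 3 was the highest. Tnc (ENSMUSG00000028364, chr4:63959785-64047015, minus strand), an anti-adhesive protein of remodelling stroma, had 30, 36 and 27 counts in J110 and 1 in each SSM3 library. Its level of 6.18 ± 0.818 CPM (SD, n = 3) in J110 was close to that of Bgn, and the ratio was 29.3-fold lower in SSM3 with a 95% exact interval of 9.73 to 145. Thbs1 shares 208 exon bases with the antisense gene Gm29233, which had no count, and Tnc shares 176 with 8030451A03Rik, which had at most 5.

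The remaining glycoproteins were close to the limit of detection in both lines. Postn (ENSMUSG00000027750, chr3:54361109-54391037, plus strand), an integrin ligand of fibroblast matrix, had 0, 1 and 0 counts in J110 and 2, 2 and 4 in SSM3. Fbln1 (ENSMUSG00000006369, chr15:85205949-85286535, plus strand) had 3, 5 and 2 counts in the J110 libraries and 1, 1 and 0 in SSM3. Neither set overlapped between the lines, yet such counts give no firm size. The ratio was 8.46-fold higher in SSM3 for Postn (95% exact interval 1.13 to 375) and 4.73-fold lower for Fbln1 (1.01 to 44.4).

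**Figure D1:**
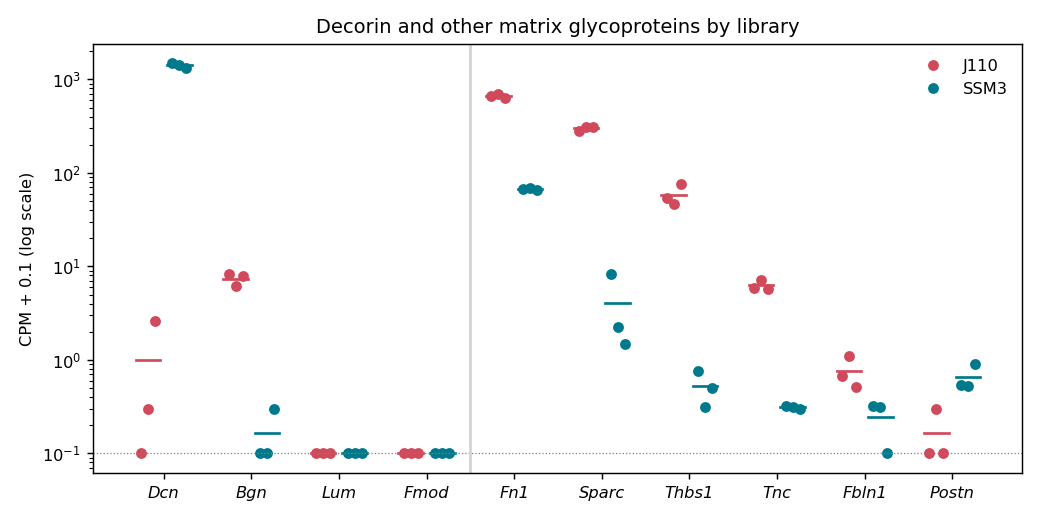
Level of each of the 10 genes in each library, as CPM + 0.1 on a log axis, with J110 and SSM3 libraries as separate points and a line at each mean. Dcn stands at 1336 to 1479 CPM in SSM3, whereas Fn1, Sparc, Thbs1, Bgn and Tnc stand higher in J110 in every library, and Lum and Fmod are at 0.

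Of the 6 genes that passed the filter, 1 (Dcn) was higher and 5 (Bgn, Fn1, Sparc, Tnc and Thbs1) were lower in SSM3. Among the 12284 genes tested, 77.9% passed an adjusted p of 0.05, 38.6% as higher and 39.2% as lower in SSM3, and 79.6% had libraries that did not overlap between the lines, 39.4% with SSM3 higher and 40.3% with SSM3 lower. The genes were chosen with this contrast known, so nothing is read from their count. Their median log2 fold change was -5.49, beside -0.014 for all genes tested. Below, rose and fell refer to SSM3 relative to J110, and the counts of calls in each list stand beside the 38.6% and 39.2% given here. At least 8-fold changes were found for 6.52% of all genes tested as higher and 8.13% as lower in SSM3.

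Summed over the 10 genes, the lines differed less than their parts. The sum was 1023, 1073 and 1034 CPM in J110 and 1556, 1495 and 1404 CPM in SSM3, with means of 1043 ± 26.8 and 1485 ± 76.2 CPM (SD, n = 3). The make-up was nearly exchanged. In SSM3, Dcn took 95.1%, 95.2% and 95.1% of the counts on the 10 genes and Fn1 4.29% to 4.69%. In J110, Fn1 took 65.6%, 65.1% and 60.9%, Sparc took 27.6% to 30.3%, and Dcn at most 0.242%. The ratio of Fn1 to Sparc counts was 2.01 to 2.38 in J110 and 8.11 to 47.3 in SSM3. Of the 10 genes, 6 were at the floor in every SSM3 library and 3 in every J110 library.

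**Figure D2:**
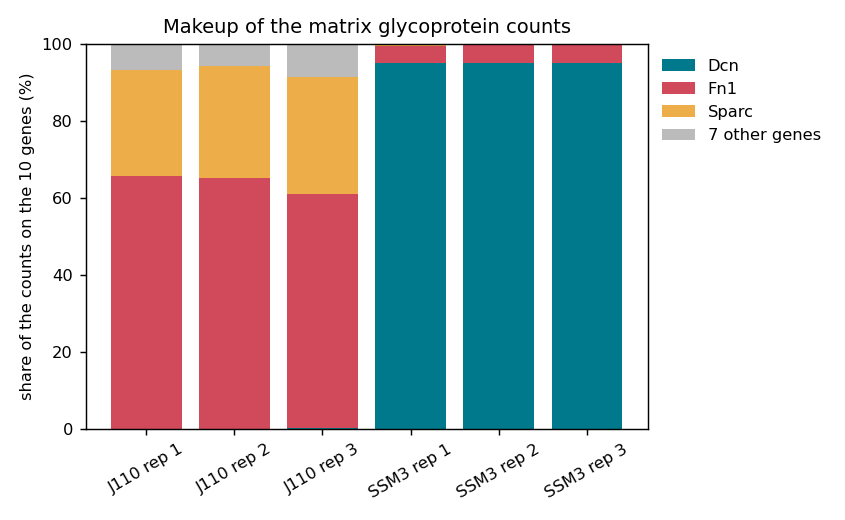
Stacked bars of the share, in percent, of the counts on the 10 genes that fell on Dcn, Fn1, Sparc and the 7 other genes, with a bar for each library. Dcn fills about 95.1% of each SSM3 bar, and Fn1 and Sparc fill most of each J110 bar.

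Dcn lies on chromosome 10 in a cluster of small leucine-rich proteoglycan genes, and apart from Lum, the levels of its neighbours did not form part of the rule. After Dcn on the plus strand come Lum at 47.0 kb, Kera at 88.7 kb and Epyc at 126 kb, which encode keratan sulfate or dermatan sulfate proteoglycans of cornea and cartilage, and then Ccer1 at 175 kb. Lum, Kera and Ccer1 had 0 counts in every library and Epyc had 1 count, in J110. On the other side, Gm33543 had 0 counts and Gm5426 at most 2. Btg1, an antiproliferative gene that lies 856.8 kb before Dcn, averaged 192 ± 4.36 CPM in J110 against 248 ± 14.5 CPM in SSM3 (SD, n = 3), a log2 fold change of 0.37 (SE 0.073, edgeR adjusted p = 0.000215). Eea1, which encodes an early endosome tether, fell from 155 ± 14.7 CPM to 25.4 ± 3.41 CPM (SD, n = 3), a log2 fold change of -2.60 (SE 0.11, edgeR adjusted p = 2.21e-12). Of the 8 nearest protein coding genes, none came near the level of Dcn in SSM3.

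**Figure D3:**
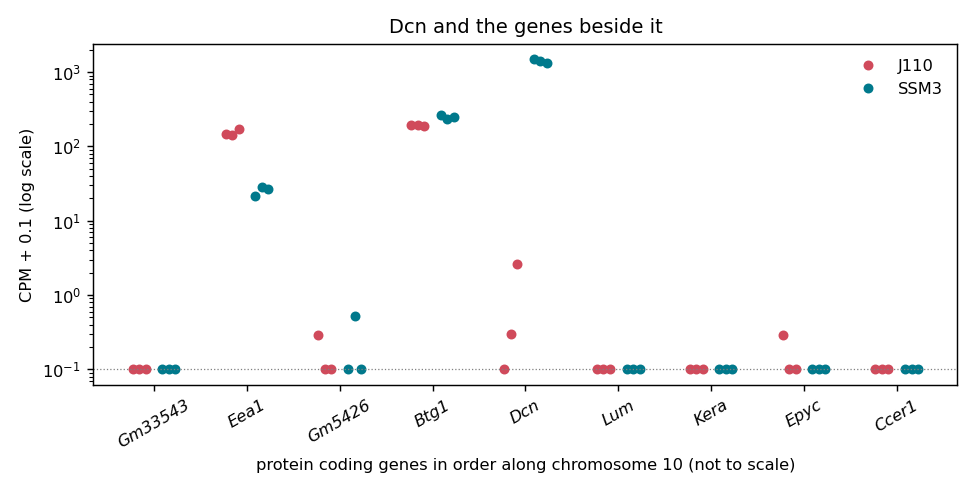
Level of Dcn and of the 4 annotated protein coding genes on each side of it on chromosome 10, as CPM + 0.1 on a log axis, with a point for each library. Dcn is above 1000 CPM in SSM3, Btg1 and Eea1 are detected in both lines, and the other 6 genes have at most 2 counts in any library.

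The genes whose levels over the 6 libraries were nearest to those of Dcn, by the distance between log2 CPM values among all genes tested, included Gpx3, Il1rl1, Itih2 and Basp1, at distances of 1.16 to 1.68. Itih2, a heavy chain that is transferred to hyaluronan in matrix, had 2, 0 and 9 counts in J110 and averaged 1243 ± 121 CPM in SSM3 (SD, n = 3). Gpx3, a secreted glutathione peroxidase, had 1, 3 and 16 counts in J110 and averaged 1130 ± 95.3 CPM in SSM3 (SD, n = 3). In each of these 4 genes, J110 replicate 3 held the most J110 counts, as it did for Dcn. The choice by distance to Dcn over the same libraries favours such genes, so this is no separate result. Without J110 replicate 3, the log2 fold change of Gpx3 was 11.40 in place of 9.70. Itih2 had a log2 fold change of 10.68 over all libraries and, without J110 replicate 3, was higher in SSM3 by a ratio of 6358-fold (95% exact interval 1760 to 52502). The 5 nearest genes were the same without it. The ranking weighs these low counts, since with a prior count of 0.5 in place of 2, only 2 of the 5 nearest genes were shared.

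Promoter sequences were looked up for the 10 genes, and RefSeq (GRCm38.p6) gave an entry for 6 of them, while Dcn, Lum, Fn1 and Thbs1 had none. The promoters of Bgn, Sparc and Tnc are shown because only these 3 of the 6 had enough counts to be tested. Each runs from 250 bases before to 50 after the RefSeq start, 5′ to 3′ on the gene's strand. Both strands were searched for TGANTCA (AP-1), GGAATG (TEAD), GGGCGG (GC box) and TATAAA, and matches are in capitals.
Bgn, chrX:73483351-73483650, plus strand: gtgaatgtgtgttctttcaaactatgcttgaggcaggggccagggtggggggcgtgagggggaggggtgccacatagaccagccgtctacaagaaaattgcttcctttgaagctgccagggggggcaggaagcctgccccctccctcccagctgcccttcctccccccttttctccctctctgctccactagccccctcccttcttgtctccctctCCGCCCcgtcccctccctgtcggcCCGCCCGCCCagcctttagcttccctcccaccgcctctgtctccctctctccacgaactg
Sparc, chr11:55420031-55420330, minus strand: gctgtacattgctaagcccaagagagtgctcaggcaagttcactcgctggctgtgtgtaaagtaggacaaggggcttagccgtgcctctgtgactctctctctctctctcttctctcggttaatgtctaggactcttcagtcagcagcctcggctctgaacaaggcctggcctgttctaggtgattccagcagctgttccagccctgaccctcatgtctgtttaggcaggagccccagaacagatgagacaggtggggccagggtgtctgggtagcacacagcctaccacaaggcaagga
Tnc, chr4:64046966-64047265, minus strand: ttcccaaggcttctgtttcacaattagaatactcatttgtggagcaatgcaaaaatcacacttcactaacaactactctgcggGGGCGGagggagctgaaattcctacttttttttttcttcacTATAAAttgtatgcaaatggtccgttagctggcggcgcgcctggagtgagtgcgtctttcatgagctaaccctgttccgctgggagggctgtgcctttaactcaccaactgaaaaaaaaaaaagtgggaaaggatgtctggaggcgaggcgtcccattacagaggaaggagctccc
Bgn held 3 GC boxes, at -34, -10 and -6 from the start, of which the last overlap. Tnc, shown by the first of its RefSeq entries, held a GC box and a TATAAA, and Sparc held none of the 4 motifs. Over 32851 RefSeq promoters of the same length, 35.7% held a GC box, 13.6% TATAAA, 14.7% GGAATG and 7.8% TGANTCA. A match describes the letters only.

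Among the other small leucine-rich proteoglycans, only Podnl1 and Tsku passed the filter on low counts. Of 13 listed genes, 7 were at the floor in every library, 3 of them without a count, and the 2 that passed the filter were both lower in SSM3. Podnl1, a podocan relative, had 159, 135 and 156 counts in J110 and 1, 0 and 0 in SSM3, a ratio 426-fold lower in SSM3 (95% exact interval 76.0 to 16854, edgeR adjusted p = 8.76e-12), or at least 48.6-fold lower without SSM3 replicate 1. Tsku, a secreted regulator of BMP and Wnt signalling, fell from 6.56 ± 1.66 CPM to 2.38 ± 0.646 CPM (SD, n = 3), a log2 fold change of -1.45 (SE 0.31, edgeR adjusted p = 0.000424). Aspn, asporin, of the same class as decorin and biglycan, had 4, 3 and 10 counts in J110 and 2, 1 and 3 in SSM3. No listed relative was above 3 CPM in SSM3.

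Paralogues of the glycoproteins were mostly undetected, and the 4 that could be tested differed between the lines. Of 21 listed genes, 15 were at the floor in every library and 4 passed the filter, of which 1 was higher and 3 were lower in SSM3. Tnr, tenascin-R, a tenascin known from the nervous system, had 1, 0 and 3 counts in J110 and 682, 761 and 775 in SSM3, or 156 ± 5.08 CPM (SD, n = 3), a log2 fold change of 9.06 (SE 0.22, edgeR adjusted p = 2.21e-15). Without J110 replicate 3 it had 1 count in J110 and was 1597-fold higher in SSM3 (95% exact interval 286 to 63110). Tnc itself was lower in SSM3. Tnr shares exons with the antisense gene Gm38039. Fbln2, a fibulin of elastic and basement membrane matrix, had 3721, 3498 and 3398 counts in J110 and 1, 15 and 2 in SSM3. Its mean in J110, 706 ± 13.0 CPM (SD, n = 3), was of the order of that of Fn1, and the log2 fold change was -9.10 (SE 0.23, edgeR adjusted p = 2.36e-15). Without SSM3 replicate 2, which held most of the SSM3 counts, it was 2240-fold lower (95% exact interval 766 to 10863). Smoc2, a secreted Sparc relative, had 642, 589 and 602 counts in J110 and 0, 1 and 0 in SSM3, a ratio 1734-fold lower (95% exact interval 311 to 68537, edgeR adjusted p = 1.80e-15), or at least 193-fold lower without SSM3 replicate 2. Efemp2, fibulin-4, was the least changed at -0.78 (SE 0.18, edgeR adjusted p = 0.000892), and it shares exons with Mus81.

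Decorin and biglycan are completed by enzymes that build chondroitin or dermatan sulfate on the core protein, and most of these were lower in the line with high Dcn. Of 22 listed enzymes, 15 passed the filter, of which 3 were higher and 12 lower in SSM3. The median log2 fold change of the 15 was -0.89, and it stayed at -0.89 with genes without a count in SSM3 set at their lower bound.

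At the step that makes dermatan sulfate, Dse, the epimerase that turns glucuronic into iduronic acid, had 161, 189 and 155 counts in J110 and 0 in each SSM3 library, at least 53.0-fold lower against 3 counts per library (edgeR adjusted p = 2.75e-11). Its paralogue Dsel stayed detected in SSM3, with a J110 mean of 31.6 ± 0.843 CPM and an SSM3 mean of 8.39 ± 1.31 CPM (SD, n = 3), a log2 fold change of -1.92. Chst14, the dermatan 4-O-sulfotransferase, averaged 18.1 ± 0.989 and 3.47 ± 0.881 CPM (SD, n = 3), a log2 fold change of -2.38. SSM3 libraries therefore held tags of an epimerase and of the dermatan sulfotransferase, both below J110.

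At the start of the chain, Csgalnact1, which adds the first N-acetylgalactosamine, had 86, 81 and 96 counts in J110 and 0 in SSM3, at least 27.7-fold lower (edgeR adjusted p = 1.07e-09), and its paralogue Csgalnact2 had a log2 fold change of -2.83. Chst11, a chondroitin 4-O-sulfotransferase, had 97, 105 and 96 counts in J110 and 0, 0 and 2 in SSM3, a ratio 141-fold lower (95% exact interval 38.7 to 1169, edgeR adjusted p = 2.35e-10) and at least 30.4-fold lower without SSM3 replicate 3, while Chst12 changed by -0.78. In the common linkage region the log2 fold changes ran from -0.89 for B3galt6 to 0.46 for Xylt2. Xylt2, which attaches xylose to the core, had 59, 70 and 46 counts in the larger J110 libraries and 75, 70 and 82 in SSM3, a log2 fold change of 0.46 (SE 0.17, edgeR adjusted p = 0.0257). B3gat3 and the polymerising factor Chpf were higher by 0.44 (SE 0.15, edgeR adjusted p = 0.0135) and 0.34 (SE 0.11, edgeR adjusted p = 0.0118). These 3 calls were lost without J110 replicate 3, with edgeR adjusted p of 0.120 for Xylt2, 0.0656 for B3gat3 and 0.0536 for Chpf. The chain polymerase Chsy1 changed by -0.50, from a mean of 69.0 to 48.9 CPM, and Chpf2, which shares exons with Smarcd3, by -2.18. Without J110 replicate 3 and SSM3 replicate 2 together, 0 enzymes were higher and 10 lower, and the 10 were among the 12.

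**Figure D4:**
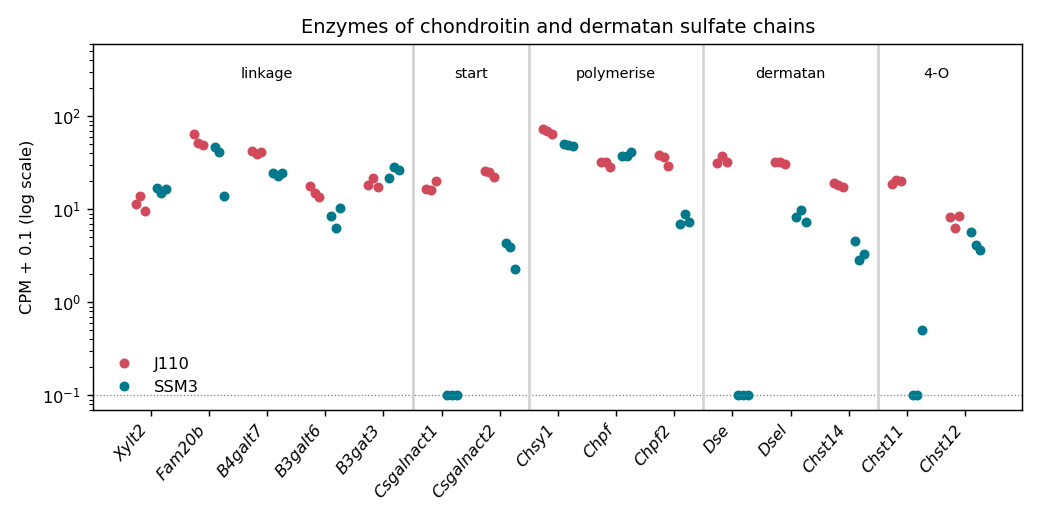
Level of the 15 chain enzymes that passed the filter, ordered by step from the linkage region to 4-O-sulfation, as CPM + 0.1 on a log axis with a point for each library. Dse and Csgalnact1 are at 0 in every SSM3 library, and Xylt2, B3gat3 and Chpf are the enzymes with SSM3 above J110.

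Of 21 receptors and surface partners of the 10 proteins, 6 were at the floor in every J110 library and 9 in every SSM3 library. The filter was passed by 13, of which 3 were higher, 9 were lower and 1 was not called, with a median log2 fold change of -0.47. Met, the growth factor receptor that binds decorin, was the gene not called, with means of 106 ± 4.46 CPM for J110 and 114 ± 1.45 CPM for SSM3 (SD, n = 3), a log2 fold change of 0.12 (SE 0.079, edgeR adjusted p = 0.186). Egfr, also bound by decorin, had 13, 7 and 7 counts in J110 and 0 in SSM3 and did not pass the filter. Igf1r, another kinase that decorin binds, fell from 84.4 ± 7.22 to 15.3 ± 2.17 CPM (SD, n = 3), a log2 fold change of -2.46 (SE 0.12, edgeR adjusted p = 1.31e-11).

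Lrp1, an endocytic receptor for decorin and thrombospondin-1, had 648, 698 and 505 counts in J110 and 5, 6 and 3 in SSM3, a log2 fold change of -6.93 (SE 0.20, edgeR adjusted p = 1.57e-14). Stab1, which clears Sparc, fell by 2.79 on the log2 scale (SE 0.23, edgeR adjusted p = 1.26e-08) and shares exons with Nt5dc2. Integrin chains of fibronectin receptors were found on both sides. Itga5 had 19 to 24 counts in J110 and 0 to 3 in SSM3, whereas Itgb6 rose from 2.07 ± 0.393 CPM to 21.8 ± 1.17 CPM (SD, n = 3), by 3.39 (SE 0.22, edgeR adjusted p = 4.87e-10). Itgb5, which pairs with Itgav, was higher by 1.71 (SE 0.092, edgeR adjusted p = 4.32e-11), and Sdc4, a syndecan that works with fibronectin receptors, by 0.84 (SE 0.091, edgeR adjusted p = 3.04e-07). Itgb1 was abundant in both lines, with means of 449 CPM for J110 and 325 CPM for SSM3.

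The TGF-β ligands that decorin and biglycan bind, and the proteins that store or process them, gave 12 tested of 15 listed genes, of which 1 was higher, 8 were lower and 3 were not called in SSM3, with a median log2 fold change of -1.84. Tgfb1, Tgfb3 and the latency protein Ltbp3 were the 3 not called, with log2 fold changes of -0.075, 0.16 and -0.055. The third ligand, Tgfb2, had 34, 46 and 43 counts in J110 and 1, 0 and 2 in SSM3, a ratio 38.8-fold lower in SSM3 (95% exact interval 13.0 to 191, edgeR adjusted p = 5.63e-08). With an SSM3 library left out, the ratio ran from 26.0-fold lower (8.67 to 128, without replicate 2) to 75.3-fold lower (13.3 to 2997, without replicate 3). Of the other latency proteins, Ltbp1 fell by 2.05 on the log2 scale (SE 0.086, edgeR adjusted p = 1.74e-12), Ltbp2 had 34, 28 and 28 counts in J110 and 0 in SSM3, at least 9.43-fold lower (edgeR adjusted p = 1.23e-07), and Ltbp4, which was not tested, had 19, 6 and 11 counts in J110 and 1, 1 and 0 in SSM3. Ccn2, a matricellular target of TGF-β, fell from 428 ± 50.9 CPM to 0.835 ± 0.633 CPM (SD, n = 3), a log2 fold change of -8.94 (SE 0.20, edgeR adjusted p = 7.90e-16), or -9.60 without SSM3 replicate 2, and shares exons with Gm15270. Its relative Ccn1 fell by 5.41 (SE 0.15, edgeR adjusted p = 7.20e-15), whereas Ccn4 rose from 21.6 ± 2.17 CPM to 126 ± 8.81 CPM (SD, n = 3), by 2.55 (SE 0.10, edgeR adjusted p = 1.16e-12). Pcolce2, an enhancer of procollagen processing, had 393, 434 and 406 counts in J110 and 0, 3 and 0 in SSM3, a ratio 389-fold lower (95% exact interval 133 to 1888, edgeR adjusted p = 1.56e-13), or at least 130-fold lower without SSM3 replicate 2. Bmp1, the protease that processes procollagens and the decorin and biglycan precursors, fell from 57.9 ± 0.956 to 18.6 ± 1.23 CPM (SD, n = 3), a log2 fold change of -1.63.

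Fibrillar collagens, the main ligands of decorin, were at or near 0 in SSM3. Of 19 fibrillar collagen and cross-linking genes, 9 passed the filter, of which 1 was higher and 8 were lower in SSM3, with a median log2 fold change of -5.10, or -4.73 with genes without a count in SSM3 at their bound. Col1a1, Col1a2 and Col3a1, the collagens of fibroblast matrix, had 0 counts in every SSM3 library, and in J110 Col1a1 had 5, 6 and 5, Col1a2 had 0 and Col3a1 had 0, 3 and 0. Col5a2 had 334, 254 and 268 counts in J110 and 0 in SSM3, at least 89.7-fold lower (edgeR adjusted p = 3.76e-12). Col5a1, its partner in collagen V, had 111, 101 and 92 counts in J110 and 1, 1 and 0 in SSM3, a ratio 144-fold lower (95% exact interval 39.5 to 1193, edgeR adjusted p = 6.93e-11). The lysyl oxidase Loxl4 had 63, 60 and 67 counts in J110 and 0 in SSM3, at least 20.0-fold lower (edgeR adjusted p = 3.92e-09). Plod3, a lysyl hydroxylase that also glycosylates collagen, was the gene that rose, from 35.0 ± 1.95 to 82.3 ± 1.12 CPM (SD, n = 3), a log2 fold change of 1.23 (SE 0.091, edgeR adjusted p = 2.46e-09), and it shares exons with Znhit1.

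The remaining matrix glycoproteins and large proteoglycans leaned the same way, with 10 of 30 listed genes past the filter, of which 1 was higher, 8 were lower and 1, Mfap4, was not called, and with a median log2 fold change of -3.66. Acan, the aggregating proteoglycan of cartilage, had 794, 713 and 588 counts in J110 and 0, 4 and 0 in SSM3, a log2 fold change of -8.82 (SE 0.28, edgeR adjusted p = 5.78e-14). Vcan, the related versican, had 285, 301 and 305 counts in J110 and 0, 3 and 0 in SSM3, a ratio 281-fold lower (95% exact interval 95.8 to 1365, edgeR adjusted p = 1.17e-12). Without SSM3 replicate 2, which held these SSM3 counts, Acan was at least 220-fold and Vcan at least 93.9-fold lower. Spp1, osteopontin, fell from 445 ± 7.54 CPM to 3.43 ± 0.470 CPM (SD, n = 3), a log2 fold change of -7.00 (SE 0.12, edgeR adjusted p = 6.90e-17). Agrn, the heparan sulfate proteoglycan agrin, was the gene that rose, from 41.8 ± 5.10 CPM to 145 ± 5.60 CPM (SD, n = 3), by 1.79 (SE 0.097, edgeR adjusted p = 4.70e-11).

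Over these 4 lists of matrix genes together, which hold 83 genes apart from the 10, 25 passed the filter, 3 (Tnr, Plod3 and Agrn) were higher and 21 lower in SSM3. The choice of the 10 genes already held that stromal genes were not high in SSM3, so these counts are a description. Of the 83, 7 reached a mean of 100 CPM in J110 and 2 (Tnr and Agrn) did so in SSM3. Among the 10 genes and these 83, the highest means in SSM3 were thus 1412 CPM for Dcn, 156 CPM for Tnr and 145 CPM for Agrn. Matrix genes outside these lists were not ranked.

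**Figure D5:**
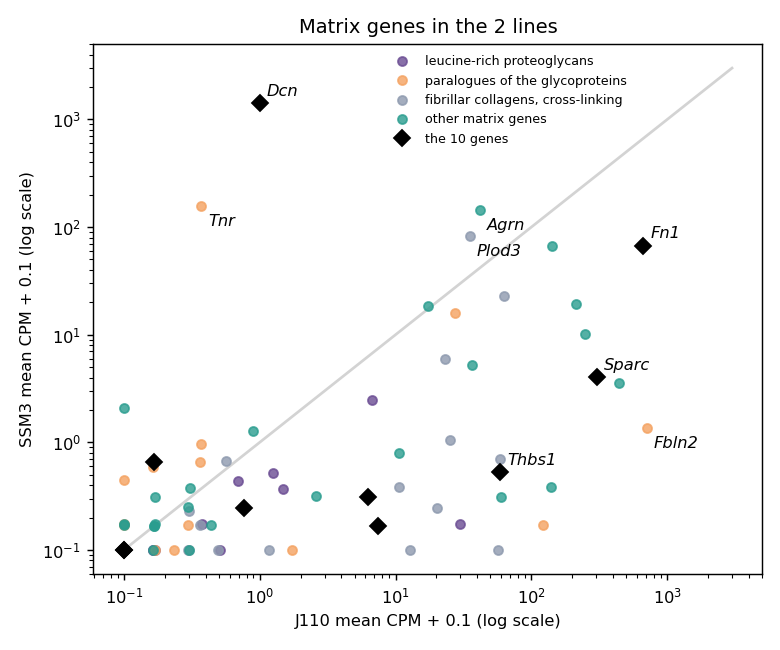
Mean level in J110 (x axis) against mean level in SSM3 (y axis), as CPM + 0.1 on log axes, for the 10 genes and the listed matrix genes, with a diagonal at equal levels. Dcn and Tnr lie far above the diagonal, Agrn and Plod3 less so, and Fn1, Sparc, Thbs1 and Fbln2 lie below it.

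Because decorin is known from fibroblasts, the markers of cell types that a culture could hold were read beside it. Of 10 fibroblast markers, none passed the filter and 9 were at the floor in every SSM3 library. Their summed level was 0.668 to 1.91 CPM in SSM3 and 2.89 to 3.96 CPM in J110. Col1a1, Col1a2, Col3a1, Dpt and Pdgfrb were at 0 in every SSM3 library, and Pdgfra had 2, 9 and 2 counts there. In the same libraries Dcn stood at 1336 to 1479 CPM.

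Summed levels of markers of other cell types differed between the lines, though single markers such as Csf1r did not. The summed pericyte and smooth muscle markers were 0.396 to 1.16 CPM in J110 and 51.2 to 57.9 CPM in SSM3, nearly all on Notch3, which had 233, 232 and 276 counts in SSM3 and 0 in J110, at least 86.8-fold higher. Des had 2, 3 and 3 counts in SSM3, Acta2 3, 0 and 9 and Cspg4 0, 5 and 1, against at most 1 in any J110 library, Mcam had at most 3 in any library, and Rgs5 and Myh11 were at 0 in SSM3. The summed endothelial markers were 158 to 181 CPM in J110 and 0 to 0.425 CPM in SSM3, with 836, 790 and 856 counts on Cdh5 in J110. Kdr had 8, 11 and 6 counts in J110 and 0 in SSM3, Emcn, Tie1 and Cldn5 had 0 in both lines, Pecam1 had at most 4 in a library and Tek 1 in all. Leukocyte markers summed to 29.2 to 37.0 CPM in J110 and 14.7 to 17.0 CPM in SSM3, with Csf1r at 14.3 and 14.2 CPM, Cd68 at 18.5 and 1.42 CPM and 0 counts on Itgam and Adgre1. Lyz2 had 6, 10 and 0 counts in J110 and 0 in SSM3, and Ptprc and Cd3e had at most 2 in a library. The part of these genes' cell types in the levels of the matrix genes was not tested. Of the 8 epithelial markers, 7 were higher and 1 lower in SSM3, and their summed level was 2677 to 2766 CPM in J110 and 12624 to 13900 CPM in SSM3. Krt8 and Krt18 were abundant in both lines, with J110 means of 1275 and 1430 CPM and SSM3 means of 2270 and 970.0 CPM. Epcam averaged 0.681 CPM in J110 and 507 CPM in SSM3, a log2 fold change of 9.52, or a ratio of 1726-fold (95% exact interval 590.4 to 8373) without J110 replicate 3, and Cdh1 averaged 4.02 and 1374 CPM. Krt19, also a keratin of simple epithelium, averaged 18.6 and 7412 CPM. Cldn3, Cldn4 and Cldn7 were, like Epcam, at under 1 CPM in J110 on average.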

How the data were processed

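The authors extracted RNA of cultured J110 and SSM3 cells with Trizol, made QuantSeq 3′ libraries, trimmed adapters and low quality reads, mapped the reads to mm10 and deposited the raw counts per gene, which are not normalised. The submitters' processing notes name cutadapt 2.1, HISAT2 2.0.4 and featureCounts of Subread 2.0.0. The annotation release, the strand setting and the treatment of reads on several genes are not given in the sources used here, so genes that share exons are uncertain, and no molecular identifiers are described, so intervals cover counting error only. Samples were grouped by the line in their titles. Of 52636 gene identifiers, 52489 (99.7%) matched GENCODE M21 (GRCm38). Chi-square values of replicate pairs were 2.21 to 5.62 per degree of freedom, so no pair was a copy.

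From the counts, low genes were dropped with filterByExpr, TMM factors were computed, and edgeR 4.0.16 (R 4.3.3, limma 3.58.1) compared the lines by its quasi-likelihood test, calling genes at a Benjamini-Hochberg adjusted p below 0.05 over 12284 genes. The SE is the size of the log2 fold change over the square root of F. The median log2 fold change over all genes was -0.014, and it was 0.16 when libraries were scaled by size alone, which moves each gene alike. Replicates varied with a biological coefficient of variation of 8.30%. A fold against a line without a count is a bound against 3 counts per library, and against 1 to 3 counts in all a ratio with an exact 95% Clopper-Pearson interval.

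The genes, the lists and the rule for naming genes were chosen with earlier results of these data known. Named are the 10 genes, up to 3 called genes per direction and list with at least 10 CPM in either line, marker genes at 10 CPM, the 5 nearest genes, the neighbours of Dcn, and a check of the labels by Ncoa3. Some results of genes chosen by this rule are not reported here. Other genes are named after their values were seen. Col1a1, Col1a2, Col3a1, Dpt and Kdr stand in more than 1 list. Alternatives were DESeq2 1.42.0, limma-voom, other scalings and filters, thinning to the smallest library, the ribosomal RNA locus left out, a replicate block, and libraries left out.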

Additional observations from a re-analysis of the deposited data

How the results depend on the processing

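No called difference reversed its direction under an alternative run, while Csf1r, which was not called, had log2 fold changes from -0.12 to 0.17. Over the results that answer a comparison 481 alternative values stayed close to the reported ones and 30 moved. A minimum of 10 counts in all 6 libraries drops genes that are absent from a line, so fewer genes were tested. It left 0 of the 10 genes higher and 1 lower in SSM3, among the small leucine-rich proteoglycans 0 lower, among paralogues of the glycoproteins 0 higher and 1 lower, and 5 receptors, 4 TGF-β partners, 2 fibrillar collagen and cross-linking genes and 5 other matrix genes lower. It also left 0 pericyte and smooth muscle markers higher, 0 endothelial and 0 leukocyte markers lower and 3 epithelial markers higher. Without a filter, 2 of the 10 genes and 2 other matrix genes were higher, 2 fibroblast, 2 endothelial and 2 leukocyte markers were lower and 4 pericyte and smooth muscle markers were higher. The log2 fold change of Dcn was 10.02 to 13.48 when each library was left out in turn, with 13.48 without J110 replicate 3, also 13.48 without J110 replicate 3 and SSM3 replicate 2 together, and 11.71 with limma-voom. Chain enzymes higher in SSM3 numbered 0 to 3 with a library left out, with 1 without J110 replicate 1 and 0 without J110 replicate 3 or with both libraries left out, and other matrix genes higher numbered 1 to 2. Among the genes nearest to Dcn, 2 were shared with a prior count of 0.5, and 5 without J110 replicate 3, a setting chosen after seeing the data. Of the single genes, Xylt2, B3gat3 and Chpf lost their call under at least 1 alternative, and the cause was not tested.

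Replicate numbers are shared by the lines, but the deviations of libraries with the same number correlated at only 0.012, 0.015 and 0.027. No shared replicate effect was thus seen, and whether cultures with the same number were prepared together is not known from the sources used here. With the replicate block, 9481 genes were called in place of 9566, and 1 and 5 of the 10 genes were higher and lower. DESeq2 called 8948 genes and limma-voom 9558. At this depth a gene below 3 counts per library was not detectable in either line.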
